A study of Mus musculus with 6 samples.

Results

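Complement components and regulators are 9 genes, *C3*, *C4b*, *C2*, *Cfb*, *C1ra*, *Serping1*, *Masp1*, *Cd55* and *Cd59a*, taken by gene symbol from the 24421 rows of the expression matrix, and each symbol matched 1 row. Their levels are described over 6 bulk RNA sequencing libraries of living GFP+ cells, sorted from the root and the ascending part of the aorta of 129S6/SvEv mice, 3 libraries of the secondary heart field (SHF) lineage and 3 of the cardiac neural crest (CNC) lineage. All mice carried the conditional tracer allele *CAG-Sun1/sfGFP*, which labels a cell and its descendants with GFP once Cre has acted, and were sacrificed at 8 weeks of age. SHF libraries came from mice with *Mef2c*SHF Cre and CNC libraries from mice with *Wnt1-Cre2*, and the expression columns of all 6 libraries are marked WT. No treatment is named. The Cre lines mark descent and not cell type, and the number of mice behind a library is not given in the sources used here. Levels are TPM, a level per transcript length scaled to the same total of 1000000 in each library. Read numbers cannot be recovered from this unit, so depth is unknown and no detection limit can be given. The number of genes above 0 TPM differed between libraries, at 11858, 9255 and 10126 in SHF and 9653, 10698 and 11334 in CNC. Triplets of values are in the order of replicates 1, 2 and 3.

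Complement is a cascade of plasma proteins that marks surfaces for removal and can perforate membranes. In the classical pathway the protease C1r activates the protease C1s, which cuts C4 and C2, and in the lectin pathway MASP proteases cut them. In the alternative pathway factor B takes the place of C2, and all 3 routes meet at C3, the cleavage of which feeds the terminal components. The liver makes most of the circulating proteins, and fibroblasts, endothelial cells and macrophages make some of them locally. C1 inhibitor, encoded by *Serping1*, holds the cascade back in the fluid phase, while CD55 and CD59 do so on the cell surface.

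Of the 9 genes, 7 were above 0 TPM in all 6 libraries, whereas 26.1% of all rows were. *C2* was above 0 in 5 libraries and *Masp1* in 1. Together the 9 genes held between 0.382% and 0.773% of a library's TPM. *Serping1* was the highest in every library and *C3* the second highest in every library. *Serping1* ranked 25 of all rows by mean TPM, *C3* 147, *C1ra* 333, *Cfb* 692, *C4b* 706, *Cd55* 1553, *Cd59a* 2887 and *C2* 3291. *C1ra* was above *Cfb* in all 6 libraries, while *Cd55* and *Cd59a* changed places between libraries. The order of *Cfb* and *C4b* turned with lineage, with *C4b* above *Cfb* in each SHF library and below it in each CNC library. In SHF replicate 2 *C4b* was at 179 and *Cfb* at 129.6 TPM. This order was seen after the values were known and was not tested.

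Several of these genes have near-identical copies in the mouse genome, and the sequences that separate them bear on the levels of those genes. In the GENCODE M21 transcripts (GRCm38, the build called mm10), 48% of the 50-base stretches of the longest *C1ra* transcript also occur in its copy *C1rb*, and 35.2% of those of *C4b* occur in *C4a*. The aligned transcripts of *C1ra* and *C1rb* were 98% identical over 2429 bases, and those of *C4b* and *C4a* 96.1% identical over 5367 bases. The stretches below are the 60 coding bases within 1 exon of *C1ra* and of *C4b* that differ most from the copy, without a gap, and are shown because only reads across such positions can assign a transcript to 1 copy. They lie in exon 11 of 11 of *C1ra* at chr6:124522654-124522713 on the plus strand, and in exon 21 of 41 of *C4b* at chr17:34735430-34735489 on the minus strand. Capitals mark the bases that differ between a gene and its copy, 11 of 60 for *C1ra* and 13 of 60 for *C4b*.
C1ra: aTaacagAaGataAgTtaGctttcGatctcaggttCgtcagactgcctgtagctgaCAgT
C1rb: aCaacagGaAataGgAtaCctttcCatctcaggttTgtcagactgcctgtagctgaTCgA
C4b: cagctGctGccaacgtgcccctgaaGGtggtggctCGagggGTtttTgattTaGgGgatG
C4a: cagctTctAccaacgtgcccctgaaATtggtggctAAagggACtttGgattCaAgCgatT

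The estimated levels of the copies were at or close to 0. *C1rb* was listed at 0 in 5 libraries and at 0.14 TPM in CNC replicate 3, and *C4a* did not exceed 0.11 TPM in any library. *Cd55b* and *Cd59b*, the copies of the membrane regulators, were listed at 0 in all 6 libraries. Their transcripts hold 13.3% of the 50-base stretches of *Cd55* and 3.98% of those of *Cd59a*. How the authors' software divided shared reads between copies cannot be checked from TPM, so the levels of *C1ra* and *C4b* are uncertain to that extent. *C3* and *Serping1* shared no 50-base stretch with another gene.

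*C3* encodes the component at which all pathways meet. It was at 922, 454 and 1475 TPM in SHF and at 864, 1388 and 935 TPM in CNC. The lowest and the highest value were both in SHF libraries, and the 3 CNC values lay between them. The means were 950.2 ± 511 TPM (SD, n = 3) for SHF and 1062 ± 284 TPM (SD, n = 3) for CNC. The difference of SHF minus CNC was -0.29 ± 0.4 (SE) on the log2(TPM + 1) scale, with a 95% interval from -1.16 to 0.58 and an adjusted p of 0.923 by limma. The interval thus leaves room for a difference of either sign. The difference was 0.17 without SHF replicate 2.

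Promoters from RefSeq, on GRCm38.p6, were used here for 4 of the 9 genes, *C3*, *C1ra*, *Cd55* and *Cd59a*. The 250 bases before the start of *C3* are shown because *C3* is the meeting point of the pathways and its promoter is a textbook target of the C/EBP factors. They lie at chr17:57228137-57228386 on the minus strand, and capitals mark the match to TTGCNNAA, which begins 45 bases before the start.
C3 promoter: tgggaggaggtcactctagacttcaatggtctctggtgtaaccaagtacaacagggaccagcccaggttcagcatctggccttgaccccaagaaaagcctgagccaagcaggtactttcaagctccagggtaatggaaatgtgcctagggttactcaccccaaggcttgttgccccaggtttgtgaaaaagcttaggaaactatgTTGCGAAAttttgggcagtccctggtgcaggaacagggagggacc
On either strand, 9.56% of 32851 RefSeq promoter windows of 250 bases hold TTGCNNAA, 4.65% an NF-kB motif (GGG, any 3 bases, TTCC), 7.02% the GAS letters TTCNNNGAA and 2.98% an ISRE motif (GAAA, any 2 bases, GAAA). Among the 4 genes, TTGCNNAA was found only before *C3* and the ISRE motif only before *Cd59a*, and the other 2 motifs in none. *Il6*, encoding a cytokine known to raise complement transcription, was at 194, 11.4 and 126 TPM in SHF and at 43.5, 64 and 53.2 TPM in CNC. SHF replicate 2 was the lowest library for *Il6* and for *C3*, but *Il6* was highest in SHF replicate 1 and *C3* in SHF replicate 3. SHF replicate 2 also had the fewest genes above 0 TPM, at 9255. A link between *Il6* and *C3* was not tested.

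*Cfb* encodes factor B, the protease of the alternative pathway. It was at 100.5, 129.6 and 140.9 TPM in SHF and at 259, 384 and 326 TPM in CNC. Every CNC library was above every SHF library, and the lowest CNC value was 1.84 times the highest SHF value. The means were 124 ± 20.9 TPM (SD, n = 3) for SHF and 323 ± 62.4 TPM (SD, n = 3) for CNC, a ratio of 2.61. SHF minus CNC was -1.37 ± 0.35 (SE) on the log2(TPM + 1) scale, with a 95% interval from -2.14 to -0.61. The unadjusted p was 0.00224 and the adjusted p 0.482 by limma, so *Cfb* did not pass the threshold of 0.05 over all genes tested. An exact two-sided permutation test of the 6 values gave 0.1, the smallest p that 3 libraries against 3 allow.

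*C2* encodes the protease that takes the same place in the classical and lectin pathways. It was at 0.08 TPM in SHF replicate 1, listed at 0 in SHF replicate 2 and at 26.3 TPM in SHF replicate 3. In CNC it was at 58.7, 108.7 and 47.9 TPM. Every CNC library was again above every SHF library, by 1.82 times between the closest values. The CNC mean was 71.8 ± 32.4 TPM (SD, n = 3), and no mean is given for SHF, where the level rested on replicate 3. SHF minus CNC was -4.47 ± 1.37 (SE) on the log2(TPM + 1) scale, with an unadjusted p of 0.00772 and an adjusted p of 0.625 by limma. The size of this value depended on the pseudocount, at -6.43 with 0.1 TPM and -2.97 with 5 TPM added before the logarithm. The gene was tested because its 3 CNC libraries were above 1 TPM.

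**Figure D1:**
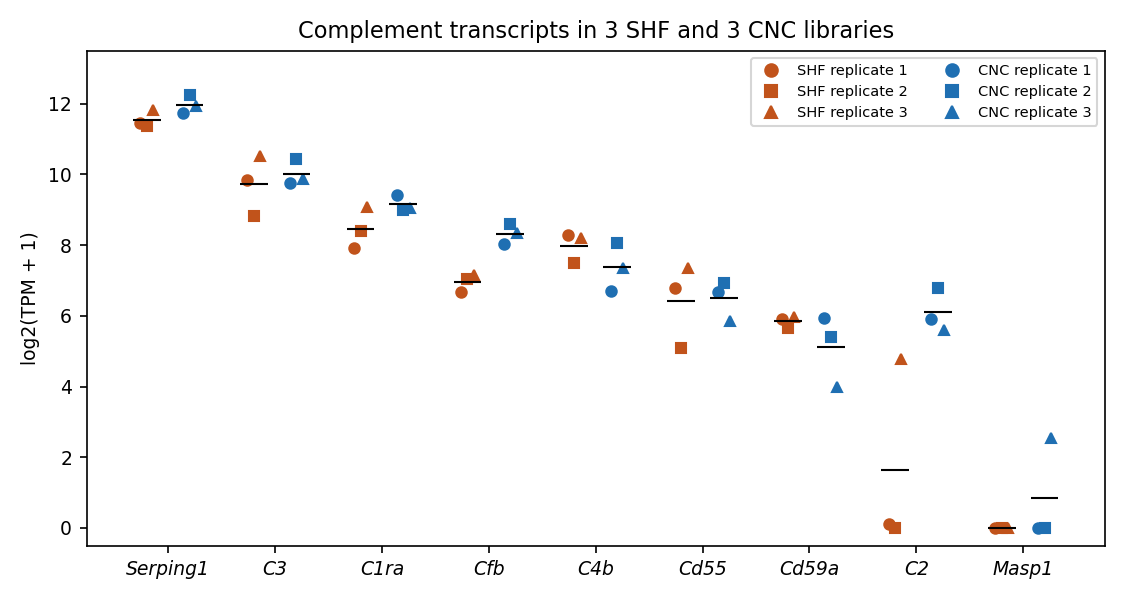
Levels of the 9 complement genes as log2(TPM + 1) on the vertical axis, with 1 point per library (orange SHF, blue CNC, shape by replicate) and a black line at the mean of each lineage. For *Cfb* and *C2* all CNC points lie above all SHF points, and for the other 7 genes the points of the lineages overlap.

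*Cfb* and *C2* are neighbours on chromosome 17. *C2* spans 34862604 to 34898265 and *Cfb* 34856374 to 34862518, both on the minus strand of GRCm38, so that 85 bases separate the end of *C2* from the start of *Cfb*. *C4b* lies 112491 bases further along, from 34728380 to 34743882 on the same strand. GENCODE M21 also lists *Gm20547*, which overlaps the pair from 34856412 to 34882042, and 81.4% of the 50-base stretches of *Cfb* and 58% of those of *C2* occur in its transcripts. The matrix has no row of that name, and how its reads were assigned cannot be checked, which leaves the levels of *Cfb* and *C2* uncertain to that extent. No 50-base stretch was shared between the transcripts of *C2* and *Cfb* themselves. The other members lie apart, *C3* on chromosome 17 from 57203970 to 57228136, *C1ra* on chromosome 6 from 124512405 to 124523443, *Serping1* on chromosome 2 from 84765387 to 84775444, *Cd59a* on chromosome 2 from 104095801 to 104115354, *Cd55* on chromosome 1 from 130439027 to 130462744 and *Masp1* on chromosome 16 from 23449417 to 23520815.

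*C1ra* encodes C1r, the protease that starts the classical cascade. It was at 242, 338 and 542 TPM in SHF and at 685, 514 and 534 TPM in CNC. SHF replicate 3 lay above CNC replicates 2 and 3, while the other SHF libraries lay below all CNC libraries. The means were 374.1 ± 153.5 TPM (SD, n = 3) for SHF and 577.5 ± 93.2 TPM (SD, n = 3) for CNC. SHF minus CNC was -0.69 ± 0.34 (SE) on the log2(TPM + 1) scale, with a 95% interval from -1.44 to 0.06 and an adjusted p of 0.874 by limma. It was -0.42 without SHF replicate 1.

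*C4b* encodes C4, the substrate of C1s. It was at 309.9, 179 and 292 TPM in SHF and at 102, 268 and 162 TPM in CNC. The lineages overlapped, and its mean was higher in SHF, at 260.1 ± 71.2 TPM (SD, n = 3) against 177.5 ± 83.7 TPM (SD, n = 3). The difference was 0.62 ± 0.43 (SE), with a 95% interval from -0.32 to 1.55 and an adjusted p of 0.884 by limma. It was 0.28 without CNC replicate 1 and 0.97 without CNC replicate 2. The ratio of *C3* to *C4b* was 2.54 to 5.06 in SHF and 5.19 to 8.45 in CNC, a separation seen after the values were known and not tested. The neighbours *Cfb*, *C2* and *C4b* therefore did not all have their higher mean in the same lineage.

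*Masp1* encodes a protease of the lectin pathway. It was listed at 0 in 5 libraries and at 4.8 TPM in CNC replicate 3, and it was not tested because it did not reach 1 TPM in 3 libraries. Its row adds up the several proteins that the gene encodes, which TPM per gene cannot separate.

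*Serping1* encodes C1 inhibitor, which inactivates C1r, C1s and the MASP proteases. It was at 2785, 2634 and 3628 TPM in SHF and at 3394, 4899 and 3886 TPM in CNC. SHF replicate 3 lay above CNC replicate 1, and the highest value was 1.86 times the lowest, the smallest such range of the 7 genes above 0 throughout. The means were 3016 ± 536 TPM (SD, n = 3) and 4060 ± 768 TPM (SD, n = 3). SHF minus CNC was -0.43 ± 0.23 (SE), with a 95% interval from -0.93 to 0.08 and an adjusted p of 0.874 by limma. It was -0.28 without CNC replicate 2. Within each library *Serping1* exceeded the sum of *C1ra* and *C1s1*, the gene of C1s, by 3.84 to 5.54 times in SHF and 3.08 to 4.7 times in CNC. These ratios overlapped between lineages. Like the other ratios given here, they were chosen after the values were seen and are given without a test.

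*Cd55* encodes decay-accelerating factor, which takes C3 convertases apart on the cell surface. It was at 109.95, 33.2 and 162 TPM in SHF and at 102, 122 and 57.5 TPM in CNC. The SHF libraries alone spanned 4.89 times, and the CNC values lay inside their range. The difference was -0.09 ± 0.62 (SE), with a 95% interval from -1.45 to 1.27 and an adjusted p of 0.995 by limma. Its sign was not stable, and without SHF replicate 2 the difference was 0.57.

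*Cd59a* encodes CD59, which blocks the membrane attack complex. It was at 59, 49.7 and 61.4 TPM in SHF and at 60.2, 40.9 and 15 TPM in CNC. The SHF libraries lay within 1.23 times of each other and CNC replicate 3 was the lowest of all. The difference was 0.74 ± 0.66 (SE), with a 95% interval from -0.72 to 2.19 and an adjusted p of 0.896 by limma. Without CNC replicate 3 it was 0.18, and without CNC replicate 1 it was 1.15.

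The lineages were compared over the 10185 genes that reached 1 TPM in 3 or more libraries, of which 8 are among the 9 described. With an adjusted p under 0.05, 0 of the 8 and 0% of all genes were called in either direction by limma. At an unadjusted p under 0.05, *Cfb* and *C2* were higher in CNC, where 3.17% of all genes were called, and 0 of the 8 were higher in SHF, against 2.69%. The same genes were those with every CNC library above every SHF library, which 5.68% of all genes tested had, and none of the 8 had the opposite pattern, against 6.11%. *C2* was among the 8 only through the CNC libraries, in which it was high, so its pattern is not counted as a result. A filter of at least 1 TPM in all 6 libraries left *C2* out. Of the 7 members then fitted, *Cfb* alone had an unadjusted p under 0.05 by limma. The median difference of the 8 was -0.36 and that of all genes tested 0.02 on the log2(TPM + 1) scale. The genes were chosen with results of these libraries known, so these counts are a description. The study filtered for lineage-exclusive transcripts with a threshold on the expressing lineage. With this read as more than 5 TPM throughout one lineage and 0 throughout the other, 0 of the 9 genes qualified, against 0.0778% of rows for SHF and 0.0614% for CNC.

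**Figure D2:**
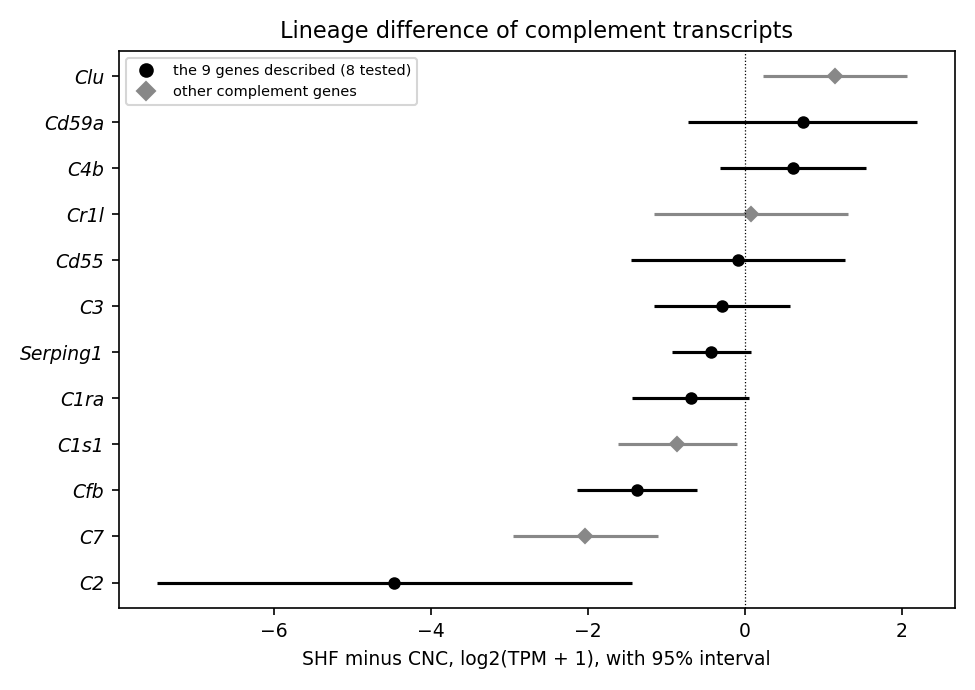
Difference of SHF minus CNC on the log2(TPM + 1) scale (horizontal axis) with its 95% interval from limma, for the 8 tested members (black circles) and for *C1s1*, *C7*, *Clu* and *Cr1l* (grey diamonds). The intervals of *C2*, *C7*, *Cfb* and *C1s1* lie below 0 and that of *Clu* above 0, and none of these genes had an adjusted p under 0.05.

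The rest of the pathway was read from a list of 45 other complement genes, all of which have a row. Of these, 21 were listed at 0 in all 6 libraries, 4 were above 0 in all 6 and 5 were tested. Of the 5, 0 had an adjusted p under 0.05 by limma, 2 (*C1s1* and *C7*) were higher in CNC at an unadjusted p under 0.05, against 3.17% of all genes tested, and 1 (*Clu*) was higher in SHF, against 2.69%. Their median difference was 0.08. *C1s1*, encoding C1s, was at 261, 182 and 403 TPM in SHF and at 418, 528 and 521 TPM in CNC. The lineages did not overlap, although the closest values were within 1.04 times of each other, and the difference was -0.86 ± 0.35 (SE) with an adjusted p of 0.809 by limma. Of its 50-base stretches, 24.3% occur in its copy *C1s2*, which was listed at 0 throughout. *C1s1* and *C1ra*, whose proteins work as a complex, lie 6901 bases apart on chromosome 6, and the ratio of *C1ra* to *C1s1* was between 0.928 and 1.86 in the 6 libraries.

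*C7*, a component of the membrane attack complex, was at 225, 107 and 191 TPM in SHF and at 393, 913 and 881 TPM in CNC. All CNC libraries were above all SHF libraries, and the mean of CNC was 4.19 times that of SHF. The difference was -2.03 ± 0.42 (SE), with an unadjusted p of 0.000485 and an adjusted p of 0.475 by limma. The other terminal components were scarcely measured. *C8a*, *C8b* and *C9* were listed at 0 in all libraries, *Hc*, the gene of C5, reached 0.12 TPM, *C8g* 3.08 TPM and *C6* 8.37 TPM in their highest library.

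Of the fluid-phase regulators, *Clu*, encoding clusterin, an inhibitor of the membrane attack complex, was at 431, 383 and 171 TPM in SHF and at 120.4, 172 and 122 TPM in CNC, and overlapped between SHF replicate 3 and CNC replicate 2. Its difference was 1.15 ± 0.42 (SE) with an adjusted p of 0.737 by limma. *Cfi*, encoding factor I, which cuts C3b, was listed at 0 in 5 libraries and at 3.26 TPM in CNC replicate 2. *C4bp*, the gene of the C4 binding protein, was listed at 0 throughout.

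**Figure D3:**
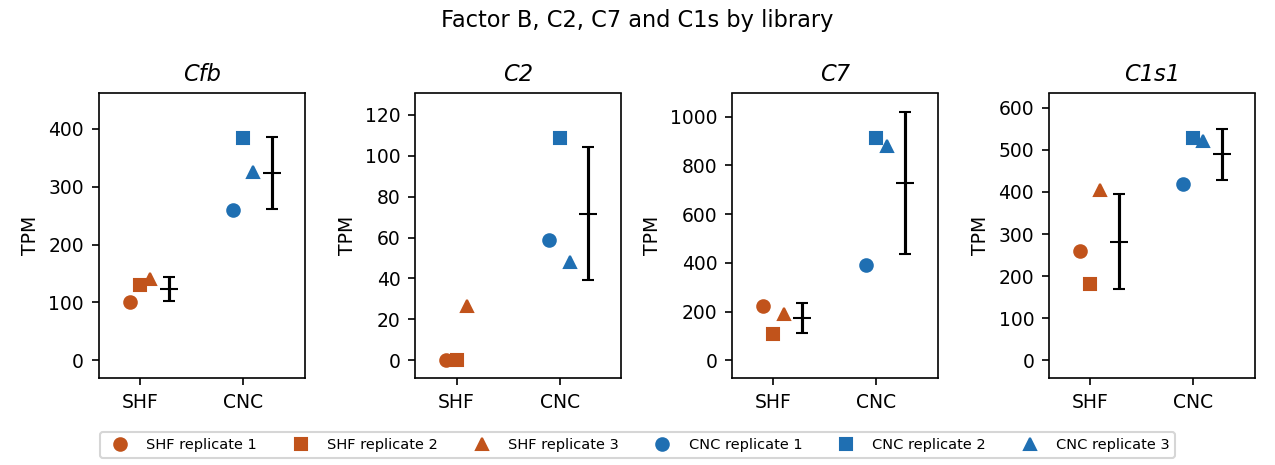
TPM of *Cfb*, *C2*, *C7* and *C1s1* (vertical axes) in each of the 6 libraries (orange SHF, blue CNC, shape by replicate), with the mean and SD of each lineage in black, except for *C2* in SHF, where a library was listed at 0. All 3 CNC libraries are above all 3 SHF libraries for each gene, with the closest values of *C1s1* within 1.04 times of each other.

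Of the membrane regulators, *Cr1l*, encoding Crry, which acts in mice as CD46 and CD55 do, was at 127, 383 and 68.6 TPM in SHF and at 121, 153 and 155 TPM in CNC. The SHF libraries enclosed the CNC libraries, and the difference was 0.08 ± 0.56 (SE) with an adjusted p of 0.995 by limma. SHF replicate 2 was the highest library for *Cr1l* and the lowest for *Cd55*. *Cd46* was listed at 0 in all libraries. Initiators of the lectin pathway were few, with *Mbl1*, *Mbl2*, *Fcna*, *Fcnb* and *Colec10* listed at 0 throughout, *Colec11* at 23.6 TPM in CNC replicate 3 alone, and *Masp2* at most 7.75 TPM. CNC replicate 3 was also the only library with *Masp1* above 0. *Cfd*, encoding factor D, the protease that cuts factor B, was listed at 0 in all 6 libraries, and *Cfp*, encoding properdin, was at most 9.86 TPM.

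C1q, which binds its target and activates C1r, was measured chiefly in 1 library. In CNC replicate 2, *C1qa* was at 44.1 TPM, *C1qb* at 141 TPM and *C1qc* at 28.3 TPM, whereas in the other 5 libraries all 3 were listed at 0, except for *C1qb* at 9.14 TPM in SHF replicate 1. The same library was highest for the receptor genes *C3ar1* (10.4 TPM), *C5ar2* (4.04 TPM) and *Itgb2* (19.1 TPM) and for the macrophage genes *Lyz2* (58.9 TPM), *Tyrobp* (32.3 TPM) and *Csf1r* (25.9 TPM). The macrophage genes *Cd68* and *Mrc1* did not follow, with *Cd68* at 0 in CNC replicate 2 and highest in SHF replicate 3, at 26.9 TPM, and *Mrc1* above 0 only in SHF replicate 2, at 8.56 TPM. *Ptprc*, *Adgre1* and *Cd3e*, which define leukocytes, macrophages and T cells, were listed at 0 in all 6 libraries, and the summed level of 10 leukocyte genes was 8.56 to 26.9 TPM in SHF and 19.9 to 158 TPM in CNC. *Ly6c2*, the highest leukocyte gene by mean, was at 0.75, 0 and 0 TPM in SHF and at 11.9, 40.6 and 32.9 TPM in CNC. Its CNC libraries were all above its SHF libraries, as for 5.68% of all genes tested. *Ly6c2* passed the filter only through the CNC libraries, in which it was high, so nothing is read from that pattern. The part of leukocyte content in the values of *Cfb*, *C2* and *C7* was not tested.

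**Figure D4:**
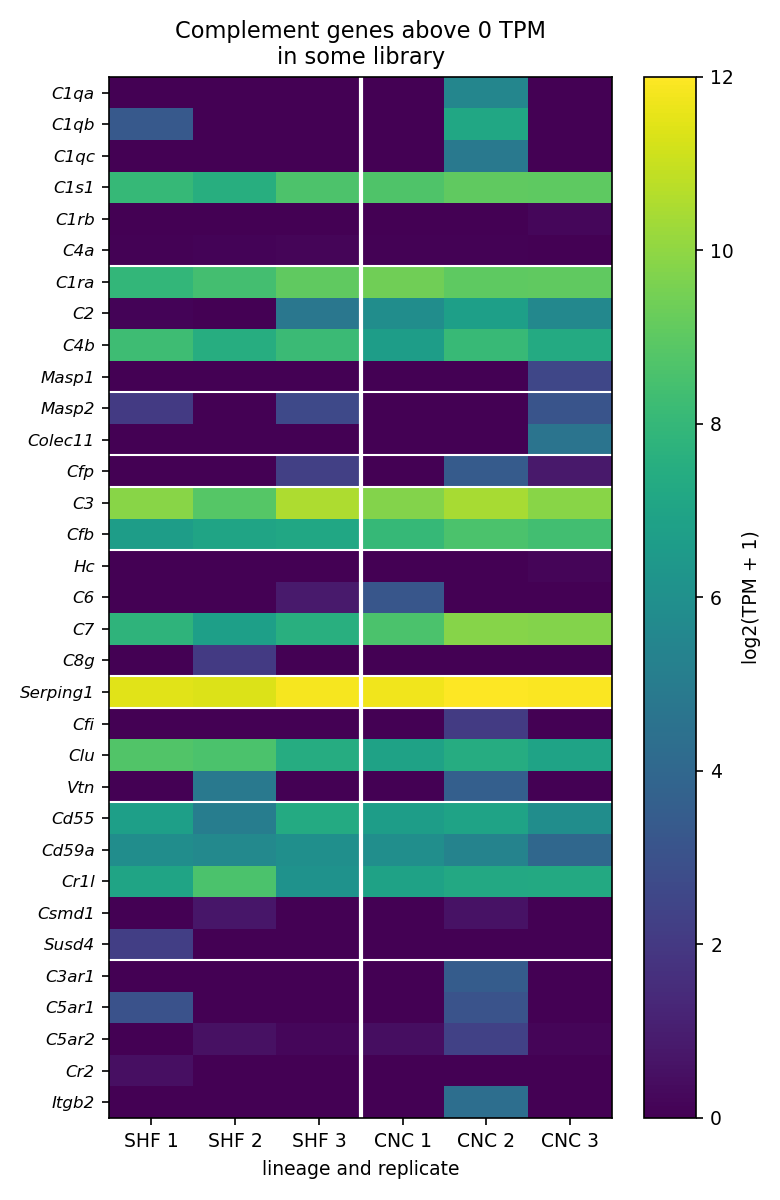
Levels as log2(TPM + 1), by colour, of the 33 of 54 complement genes above 0 TPM in some library (rows, grouped by role between white lines) in the 6 libraries (columns, SHF left and CNC right). *Serping1* and *C3* are the highest in every library, and *C1qa*, *C1qb* and *C1qc* chiefly in CNC replicate 2.

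Markers of cell types were read beside these values, and none had an adjusted p under 0.05 by limma. The summed level of 10 fibroblast genes was 29221 to 32484 TPM in SHF and 40269 to 54798 TPM in CNC, and 6 of the 10, *Col1a1*, *Col1a2*, *Col3a1*, *Pi16*, *Clec3b* and *Serpinf1*, were higher in every CNC library than in every SHF library, against 5.68% of all genes tested. That of 10 smooth muscle genes was 1476 to 3091 TPM in SHF and 1288 to 2026 TPM in CNC, with overlap between the lineages. *Dcn* was the fibroblast gene with the highest mean over the 6 libraries. *Cfb* was 0.866% to 1.13% of it in SHF and 2.15% to 2.58% in CNC, without overlap. The highest value of *Dcn* was only 1.28 times its lowest, so this ratio repeats the separation of *Cfb* itself. The ratio of *Cfb* to *Pi16*, a marker of adventitial fibroblasts, was 0.125 to 0.383 in SHF and 0.134 to 0.279 in CNC, and overlapped. The part of fibroblast content in the difference of *Cfb* was not tested, and in bulk libraries more cells of a type and more RNA per cell cannot be told apart. The summed level of 9 endothelial genes was 82.8 to 581 TPM in SHF and 22.9 to 61 TPM in CNC, and *Cdh5*, *Tie1*, *Vwf* and *Emcn* were listed at 0 in all CNC libraries and above 0 in all SHF libraries, where 6.11% of all genes tested had every SHF library above every CNC library. Of these, *Tie1* and *Vwf* did not pass the filter, and *Cdh5* and *Emcn* passed it only through the SHF libraries, so nothing is read from that pattern. By SHF replicate the endothelial sum was 82.8, 581 and 520 TPM, while *Clu* was at 431, 383 and 171 TPM. The part of endothelial content in the SHF values of *Clu* was not tested.

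Other sources of complement transcripts were hardly measured. Of 8 hepatocyte genes, 7 were listed at 0 in all libraries, *Alb* among them, and *Ahsg* was between 0 and 75.4 TPM. Of 8 mesothelial genes, *Msln*, *Upk1b* and *Lrrn4* were listed at 0 throughout and the sum reached 88.3 TPM in SHF replicate 3. Of 4 adipocyte genes, *Plin1* was at 24.4 TPM in CNC replicate 2 and the others were listed at 0. The sum of 5 Schwann cell genes was 1.5 to 15.3 TPM in SHF and 21.4 to 94.4 TPM in CNC. The SHF values of *Xist* were 0, 52 and 38.8 TPM and its CNC values all 0, so sex and lineage were partly confounded. SHF replicate 1 had *Ddx3y* and *Eif2s3y* but no *Xist*, as the CNC libraries did. Without SHF replicates 2 and 3 the difference of *Cfb* was -1.66 with an adjusted p of 0.909 by limma, a value that rests on 1 SHF library, and the part of sex in it was not tested.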

How the data were processed

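RNA of sorted GFP+ cells was amplified by the SmartSeq2 protocol, aligned with bowtie2 and quantified with RSEM 1.2.25 on mm10, as the submitters' notes and the paper's methods state. The authors deposited TPM per gene, 1 column per library, matched here through its library code. The gene annotation is not given in the sources used here. Each column sums to about 1000000 TPM.

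The members and lists were chosen with earlier results of these data known. After a filter of 1 TPM in 3 or more libraries, the log2(TPM + 1) values of 10185 genes were fitted by lineage with lmFit and trended eBayes of limma 3.58.1 (R 4.3.3). P-values were adjusted by Benjamini-Hochberg over all of them, and the threshold was 0.05. On this scale the change of low genes is understated. For a single gene the exact permutation test was two-sided. The genes named are the 9 members, their copies, other complement genes averaging 10 TPM or more, genes closest to *C3* and *Serping1* in pattern, the highest gene of each marker list and those at 0 throughout. Other complement, marker and motif values were named after they were seen. The counts over the lists leave out 2 genes, which are not reported here. P-values measure the spread between libraries, which the study calls biological replicates. Stretches of 50 bases and positions come from GENCODE M21, promoters from RefSeq. Python 3.11.15 with pandas 2.3.3 and matplotlib 3.10.9 served for the rest.

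Alternatives were other pseudocounts, filters and normalizations, eBayes without a trend, library weights, a replicate block, and leaving out each library, or SHF replicates 2 and 3 together.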

Additional observations from a re-analysis of the deposited data

How the results depend on the processing

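None of the members fitted and none of the 5 other complement genes had an adjusted p under 0.05 in limma under any of the 16 alternatives. The lowest adjusted p of a member was 0.319, for *Cfb* with library weights, and over all alternatives that of *Cfb* ran from 0.319 to 0.974. Of all genes tested, 0 passed, except 1 gene with a pseudocount of 5 and 1 without SHF replicates 2 and 3, where the lone SHF library is assumed to vary like the CNC libraries. Of 127 values of members, 121 kept their direction. The difference of *C3* was 0.17 without SHF replicate 2, and that of *Cd55* was 0.57 without SHF replicate 2, 0.01 without CNC replicate 1, 0.13 without CNC replicate 2, 0.3 with library weights and 0.29 without SHF replicates 2 and 3, and the cause was not tested. Leaving out 1 library at a time, *Cfb* ran from -1.52 to -1.23, *C2* from -6.04 to -3.65, *C1ra* from -1 to -0.42, *C4b* from 0.28 to 0.97, *Serping1* from -0.57 to -0.28, *Cd59a* from 0.18 to 1.15, *C3* from -0.68 to 0.17 and *Cd55* from -0.56 to 0.57. The number of members whose lineages did not overlap was 2, *Cfb* and *C2*, of which *C2* is not counted as a result. Leaving out a library cannot make separated lineages overlap, so both remained by construction. Without 1 library the number was 2 to 4. It was 4 without SHF replicate 3 (*C1ra* and *Serping1* added) and 4 without CNC replicate 1 (*Serping1* and *Cd59a* added), against 20.1% to 25% of all genes tested without 1 library. Rescaling by median-of-ratios factors of 1.04 to 1.14 left it at 2, and factors this alike could not undo the gaps of *Cfb* and *C2*. No member was lineage-exclusive at 5 or 1 TPM, and 0 were with the other lineage under 1 TPM. The replicate numbers mark separate libraries, whose deviations from their lineage's mean correlated by -0.0113, -0.00438 and -0.0106, and with a replicate block 0 genes passed. Unknown depth, values of 0 and 3 libraries per lineage limit every comparison.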

Other observations

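The genes whose pattern over the 6 libraries was closest to that of a member were found by the root mean square difference of log2(TPM + 1), each gene centred on its own mean, among 7443 genes averaging 10 TPM or more. For *C3* they were *Faf2*, *Gtf2a2* and *Bcap31*, with differences of 0.144, 0.175 and 0.192. *Faf2* was at 34.2, 13.8 and 44.1 TPM in SHF and at 29.2, 51.9 and 26.6 TPM in CNC, lowest in SHF replicate 2 as *C3* was. For *Serping1* they were *Chrac1*, *Gstm2* and *Golgb1*, with differences of 0.086, 0.099 and 0.109. *Gstm2* was at 428, 403 and 502 TPM in SHF and at 517, 661 and 502 TPM in CNC, highest in CNC replicate 2 as *Serping1* was. None of the 6 is a complement gene. The points share their libraries, and nothing on shared function or control was read from them.

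Of 8 cytokine genes that are known to raise complement transcription, *Il1a*, *Il1b*, *Ifng*, *Ifnb1* and *Osm* were listed at 0 in all 6 libraries, *Tnf* was at 6.81 TPM in SHF replicate 1 alone, and *Lif* was above 0 in 3 libraries, at 26.1 and 16 TPM in SHF replicates 1 and 3 and 34.9 TPM in CNC replicate 1.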
